A study of Triticum aestivum and Aegilops tauschii and Triticum carthlicum with 18 samples.

Results

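Leaf transcript levels were compared within tetraploid wheat, between the 2 maternal parents of a pair of synthetic hexaploid lines. TTR04 is Triticum turgidum ssp. durum cv. Inbar and TTH01 is T. turgidum ssp. carthlicum, and both carry the genome BBAA. The comparison took the 2 arrays of TTR04 and the 2 arrays of TTH01, 4 of the 18 arrays of the series, over every probe set of the Affymetrix wheat array except controls. This left 61115 of 61290 probe sets. The other arrays, also 2 per group, covered Aegilops tauschii TQ27 (genome DD), which was the pollen parent of both lines, the hexaploid lines Allo-AT5 (from TTR04) and Allo-AT9 (from TTH01) at selfed generations S4 and S5, and the mid-parent mixtures MPV5 and MPV9. Each mixture held 2 parts of RNA of TTR04 (MPV5) or TTH01 (MPV9) and 1 part of TQ27 RNA. RNA came from the second leaf of seedlings with 3 leaves, kept under 12 h of light at 22 °C and at 20 °C in the dark. Each biological replicate was a pool of 10 plants, so that differences between single plants are averaged within a pool and cannot be estimated. Each tetraploid is represented by 1 genotype. In what follows a gene is 1 probe set, the first dot of its name is written as _, and a level is the deposited log2 value from robust multichip averaging (RMA). A group was taken to express a gene if neither of its arrays fell below a level of about 4.5. Differences are given as TTR04 minus TTH01 on the log2 scale, with standard errors (SE) and adjusted p from limma over all 61115 genes.

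Durum and carthlicum wheats are both free-threshing forms of domesticated tetraploid wheat. In tetraploid wheat most genes are present as a pair of homoeologues, 1 from the A and 1 from the B genome, and a further copy is added by the D genome of Ae. tauschii when a hexaploid forms. A probe set designed on bread wheat sequences can therefore hybridize with several related transcripts, and a level may sum over them. Levels of different genes are not set against each other here, because probes differ in how brightly they hybridize.

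The 4 arrays were not equally alike. Across the 29667 genes expressed in at least 1 group of the series, the Pearson correlation of levels was 0.848 between the replicates of TTR04 and 0.947 between those of TTH01. TTR04 replicate 2 correlated better with TTH01 replicate 2 (0.917) and with TTH01 replicate 1 (0.885) than with its own replicate. TTR04 replicate 1 also correlated better with TTH01 replicate 1 (0.865) than with its own replicate, but not with TTH01 replicate 2 (0.835). These correlations are across genes, share the same normalization, and were not tested. The replicates of TTR04 differed by over 2-fold at 8389 genes, against 2673 for those of TTH01. The spread of TTR04 was the widest of the 9 groups, with an SD of replicate differences of 1.08, and that of TTH01 was 0.64. The bacterial BioC spike-in, added to every hybridization, also differed between replicates, with mean levels of 9.29 and 7.28 in TTR04 and of 9.66 and 6.71 in TTH01.

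Photosynthesis genes showed this difference between the TTR04 replicates, and cytoskeleton and house-keeping genes showed it in part. Of 14 expressed photosynthesis genes, TTR04 replicate 1 was the lowest of the 4 arrays at 11, and the median of TTR04 replicate 1 minus replicate 2 was -1.19, against -0.02 for the same difference in TTH01. PRK, which encodes phosphoribulokinase of the Calvin cycle, had levels of 11.43 and 12.90 in TTR04 and of 12.97 and 12.91 in TTH01. OEE2, a subunit of the oxygen-evolving complex, had levels of 11.77 and 13.11 in TTR04 and of 12.89 and 13.01 in TTH01 (Ta_85.1.S1_at). In both cases 1 TTR04 array lay below the other 3, which were close together. The brightest probe sets for rbcl, the large subunit of Rubisco, were near the upper limit of the scale on all arrays, so that Ta_24976.1.S1_x_at was at 14.42 and 14.45 in TTR04 and at 14.36 and 14.42 in TTH01. The 14 photosynthesis probe sets came from only 5 gene symbols, and most of them were of rbcl. TTR04 replicate 1 was also the lowest array at 9 of 14 cytoskeleton and house-keeping genes, at 8 of 11 redox genes and at 4 of 5 histone and chromatin genes. It was not low throughout, being the lowest at 1 of 7 translation genes, 0 of 4 transport genes and 0 of 2 lipid transfer genes, where the median of replicate 1 minus replicate 2 was 0.79, 0.58 and 1.3. Over all genes TTR04 replicate 1 was over 2-fold above replicate 2 at 4593 and below it at 3796. The share of all expressed genes at which it was the lowest array was not counted. Whether these lists stand out from other genes is therefore not known. The beta-tubulin gene tubb1 (Ta_212.1.S1_at) had levels of 8.25 and 10.52 in TTR04 and of 10.57 and 11.77 in TTH01. TUBA, of the same list, went the other way in TTR04, at 11.49 and 10.82. Over the cytoskeleton and house-keeping list the median of replicate 1 minus replicate 2 was -0.89 in TTR04 and -0.43 in TTH01. The log2 of its summed linear levels was 14.45 in TTR04 replicate 1 and 14.15 in replicate 2.

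**Figure D1:**
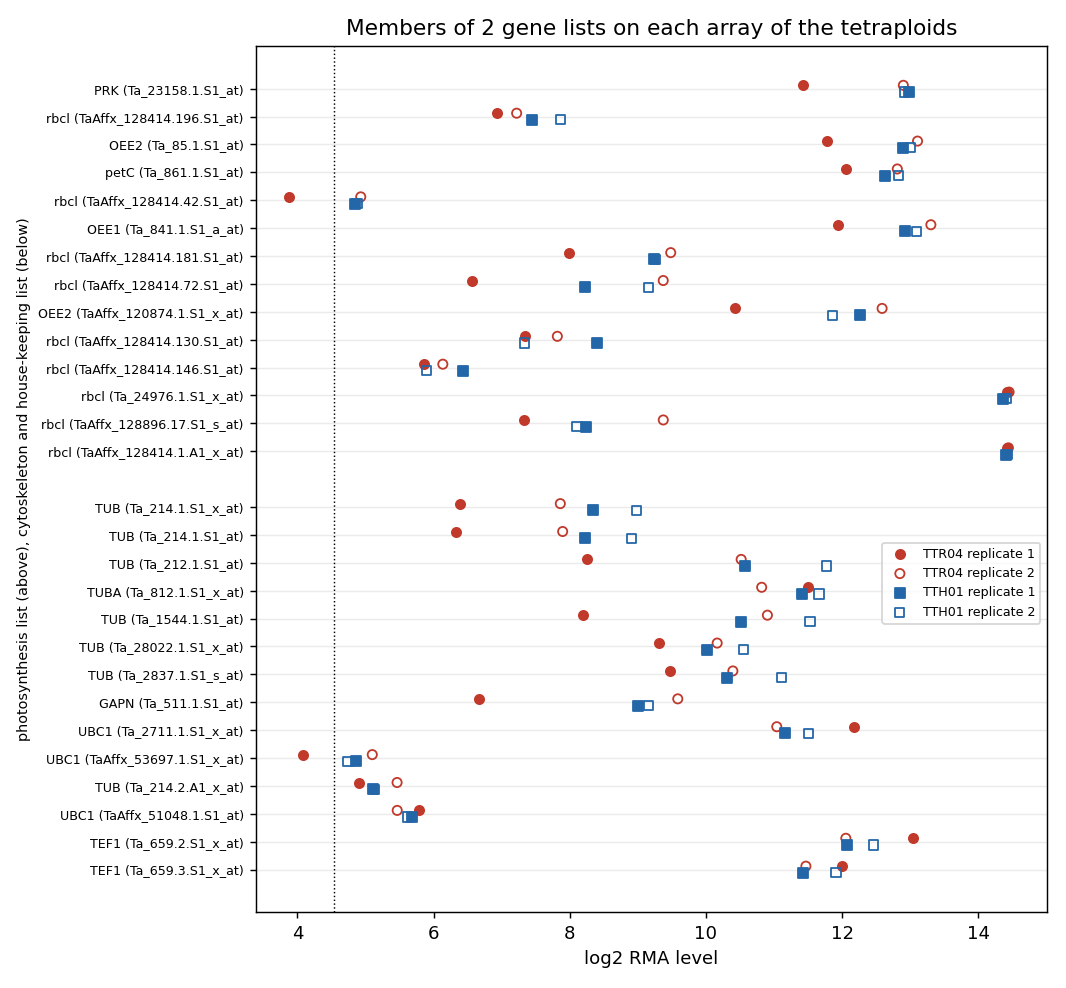
Log2 RMA level (x axis) of every expressed member of the photosynthesis list and of the cytoskeleton and house-keeping list (y axis) on each TTR04 array (circles) and each TTH01 array (squares). Filled symbols are replicate 1, open symbols are replicate 2, and the dotted line is the expression level of about 4.5. At 11 of 14 photosynthesis genes the filled circle of TTR04 replicate 1 is the leftmost symbol.

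Marker genes of leaf and seed were looked up in both tetraploids. Of 33 probe sets for leaf markers 13 were expressed, and of 18 for seed storage and other seed proteins 3 were. The summed level of the leaf markers was 15.8 and 16.3 in TTR04 and 16.1 and 16.2 in TTH01, and that of the 3 seed genes was 10.5 and 9.03 in TTR04 and 10.2 and 9.53 in TTH01, as log2 of summed linear values. The leaf sum came mostly from the rbcl probe sets near the upper limit, and the 2 sums are not set against each other. No gene of either list passed the test between the tetraploids. In leaf RNA, fewer cells of a type and less RNA per cell cannot be told apart.

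TTR04 expressed 23282 genes and TTH01 expressed 24278, with 21795 genes expressed in both and 25765 in either. Most of them differed little. The median size of the difference among the 25765 genes was 0.32, below the median SE of 0.35. An adjusted p under 0.05 was reached by 762 genes, or 2.96% of those expressed. TTR04 was higher at 335 of them (1.3%) and lower at 427 (1.66%). The differences that passed were large, with a median of 2.57 where TTR04 was higher and of -2.36 where it was lower, and the smallest of them was 0.74 in size. A 4-fold difference was exceeded by 234 higher and 275 lower genes, and a 16-fold difference by 67 higher and 55 lower genes. The arrays of TTR04 and TTH01 did not overlap at any of the 762 genes, which was the case for 32.6% of all expressed genes.

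**Figure D2:**
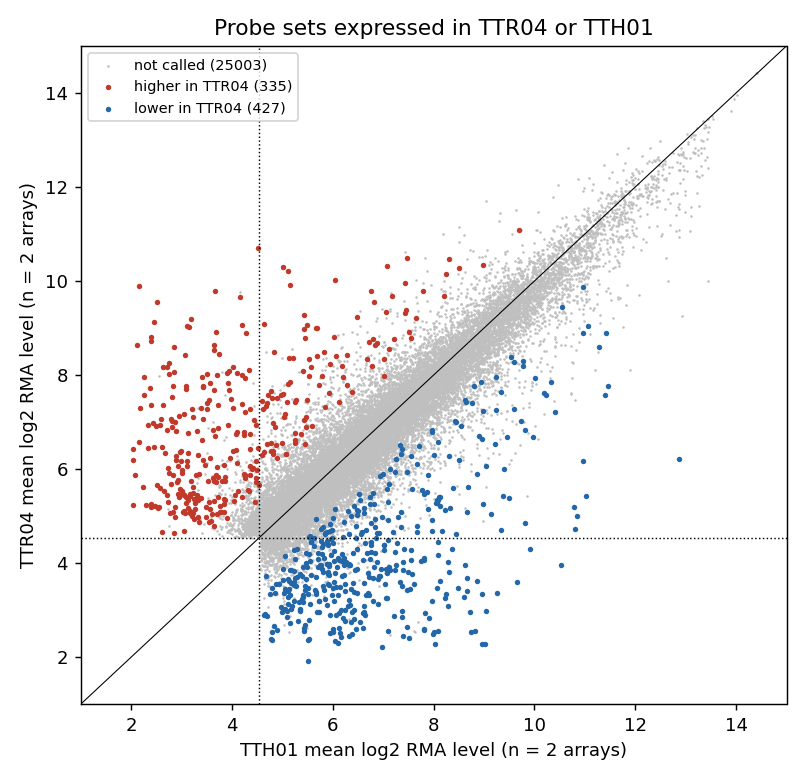
Mean log2 RMA level in TTR04 (y axis) and in TTH01 (x axis), each over 2 arrays, of the 25765 genes expressed in either tetraploid. Red points (335) were higher and blue points (427) lower in TTR04 at an adjusted p under 0.05, grey points were not called, and dotted lines mark the expression level of about 4.5. Most called genes lie far from the diagonal, and many have 1 mean below the dotted line.

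The count depended on how the spread was estimated. In a fit of the 4 tetraploid arrays alone, with their own spread and not that of all 18 arrays, 72 genes passed, 33 higher and 39 lower, and all of them were among the 762. When 1 array at a time was left out, the count was 531 without TTR04 replicate 1, 1077 without TTR04 replicate 2, 471 without TTH01 replicate 1 and 530 without TTH01 replicate 2. The higher genes numbered 515 without TTR04 replicate 2, 190 without TTH01 replicate 1 and 223 without TTH01 replicate 2, and the lower genes 281 without TTH01 replicate 1. With arrays of high and low BioC level as blocks 1076 genes passed. With every array left out in turn 365 genes passed each time, 157 higher and 208 lower. Of the 762 genes, 611 had replicates within 2-fold of each other in both tetraploids.

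Genes with an annotated symbol were a small part of these. Of 783 expressed genes with a symbol 21 were called (2.68%, against 2.96% of all expressed genes), 6 higher and 15 lower in TTR04, and the remaining 741 called genes had no symbol. The genes below are the 28 that the naming rule selects. Positions are those of the gene in the hexaploid reference IWGSC CS RefSeq v2.1.

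The largest differences with a functional name were at genes for an enzyme inhibitor and for detoxification, and TTR04 was lower. The gene xip (LOC542997, chromosome 4D, 127386779 to 127387887) encodes a xylanase inhibitor, a protein that binds xylanases with which microbes degrade the plant cell wall. Its probe set Ta_1200.1.S1_x_at had levels of 3.65 and 4.28 in TTR04 and of 10.93 and 10.12 in TTH01. The TTR04 arrays were both below the expression level, so that the difference of -6.56 (SE 0.41, adjusted p = 3.37e-06) was at least 5.99 in size when counted from that level. The probe set Ta_1200.1.S1_at had levels of 5.14 and 5.25 in TTR04 and of 11.14 and 10.45 in TTH01 (-5.60, SE 0.37). For xip TTH01 was close to the diploid TQ27, at a mean of 10.59 for the first and 10.77 for the other probe set.

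The gene lgul (LOC542984, chromosome 5A, 637379994 to 637382451) encodes lactoylglutathione lyase, which uses glutathione to remove methylglyoxal. Its probe set Ta_28068.1.S1_at had levels of 2.73 and 4.23 in TTR04 and of 8.62 and 8.33 in TTH01 (-5.00, SE 0.59, adjusted p = 0.000542, at least 3.93 in size). A further lgul probe set, Ta_8554.1.S1_at, had 5.92 and 8.82 in TTR04 and 7.82 and 8.35 in TTH01, and these overlapped (-0.71, SE 0.96, adjusted p = 0.934). LTP3 (LOC543095, chromosome 5B, 276239198 to 276240377), a lipid transfer protein gene, also had 1 probe set that was called and 1 that was not. Its probe set Ta_1282.4.S1_at had 7.69 and 5.96 in TTR04 and 10.13 and 9.51 in TTH01 (-3.0, SE 0.59, adjusted p = 0.0235), whereas Ta_1282.1.S1_x_at had 12.38 and 11.51 in TTR04 and 12.69 and 12.43 in TTH01 (-0.61, SE 0.39, adjusted p = 0.751). Only the first probe set of each gene was called, and the call for LTP3 was lost without TTR04 replicate 2 (adjusted p = 0.10), TTH01 replicate 1 (0.22) or TTH01 replicate 2 (0.08).

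The lower genes with no functional name in the annotation included some that were at background in TTR04. LOC780636 (chromosome 4B, 588183024 to 588198083) had levels of 2.96 and 2.96 in TTR04 and of 8.83 and 8.62 in TTH01 by Ta_7339.1.S1_at (-5.76, SE 0.35, at least 4.18 in size), and its probe set Ta_7339.1.S1_x_at differed by -5.25 (SE 0.37, at least 4.32 in size). LOC543418 (chromosome 6D, 294362836 to 294365875) had 2.50 and 2.62 in TTR04 and 8.56 and 9.08 in TTH01 by Ta_10508.2.S1_a_at (-6.26, SE 0.32, adjusted p = 6.8e-07, at least 4.28 in size). TQ27 was high for LOC780636, with a mean of 9.72, and low for LOC543418, with a mean of 2.70. A further probe set of both genes was not called, with -0.89 for Ta_7339.3.S1_a_at and -0.51 for Ta_24991.1.S1_x_at. LOC543111 (chromosome 6D, 797167 to 798796) was measured above background in both tetraploids, at 6.55 and 6.54 in TTR04 and 9.25 and 9.18 in TTH01 (Ta_22794.1.S1_at, -2.67, SE 0.27, adjusted p = 0.000144). Its other probe sets were not called, with -1.27 (adjusted p = 0.192) for Ta_22794.1.S1_x_at and 0.13 (adjusted p = 0.973) for Ta_30622.1.S1_x_at. LOC778385 (chromosome 4A, 608706523 to 608710415) was lower by both of its probe sets, at -3.17 (SE 0.56) and -3.43 (SE 0.57), with both TTR04 arrays below the expression level and least sizes of 1.63 and 1.85. These calls were lost without TTR04 replicate 1 (adjusted p = 0.098 and 0.078) or TTH01 replicate 2 (0.099 and 0.084), and for Ta_7151.1.S1_at also without TTH01 replicate 1 (0.072). The called differences of LOC543057, LOC606349, LOC100037602 (2 probe sets) and LOC543430 lay between -1.90 and -0.91, and of these only LOC543057 was called whichever array was left out. TTR04 was below the expression level on both arrays for LOC543057, LOC606349 and LOC543430, with least sizes of 1.34, 0.72 and 0.52. LOC100037602 had 2 further probe sets that were not called, at -0.46 and -0.68 (adjusted p = 0.674 and 0.194).

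The study's supplementary gene lists, as read here, name 87 probe sets and are only a part of those lists. Of the 87, 65 were expressed in the tetraploids and 4 were called, where 2.96% of all expressed genes were. A putative vacuolar-processing enzyme precursor (Ta_30798.3.S1_at), of the protease family that matures proteins in the vacuole, had levels of 3.98 and 5.60 in TTR04 and of 7.43 and 7.92 in TTH01 (-2.88, SE 0.49, adjusted p = 0.00861), a call lost without TTR04 replicate 1 (adjusted p = 0.066) or TTH01 replicate 2 (0.093). TaAffx_106278.1.S1_at, which is listed with a plastid term, had 2.60 and 2.62 in TTR04 and 5.95 and 6.05 in TTH01 (-3.39, SE 0.27), and counted from the expression level this was at least 1.46 in size. TaAffx_14510.1.S1_at, listed with a hydrolase term, was lower at -1.66 (SE 0.33, adjusted p = 0.0279, at least 0.84 in size), but not without TTR04 replicate 1, TTH01 replicate 1 or TTH01 replicate 2 (adjusted p = 0.12 to 0.20). The one higher gene was a peroxidase, LOC543313 (Ta_5385.1.S1_at, chromosome 2A, 64653771 to 64655365). Peroxidases of plants act in cell wall cross-linking and defence. It had levels of 7.27 and 7.55 in TTR04 and of 5.51 and 3.87 in TTH01 (2.73, SE 0.50, adjusted p = 0.0141), and the call was lost without TTR04 replicate 1 (adjusted p = 0.066), TTR04 replicate 2 (0.065) or TTH01 replicate 2 (0.12).

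The higher genes with a symbol had only LOC names. LOC542846 (chromosome 3D, 380786023 to 380789792) had levels of 9.28 and 9.28 in TTR04 and of 6.02 and 4.85 in TTH01 (Ta_28758.1.S1_at, 3.84, SE 0.41, adjusted p = 0.000261). LOC543421 (chromosome 3D, 68423178 to 68423905) had 9.43 and 8.57 in TTR04 and 5.68 and 5.70 in TTH01 (Ta_22973.1.S1_x_at, 3.32, SE 0.38, adjusted p = 0.000467). The TTR04 replicates lay further apart for LOC543416 (chromosome 6B, 619195123 to 619196165), with 9.41 and 6.91 in TTR04 and 3.92 and 4.12 in TTH01 (Ta_203.1.S1_at, 4.14, SE 0.89, adjusted p = 0.0405, at least 3.62). LOC543404 (Ta_28083.1.S1_at) had 10.34 and 7.66 in TTR04 and 5.86 and 5.47 in TTH01 (3.33, SE 0.70). The calls for LOC543416 and LOC543404 were lost without TTR04 replicate 1, at an adjusted p of 0.29 and 0.19, and also without either TTH01 array, at 0.16 to 0.25. For LOC543244 (Ta_217.1.S1_x_at) the difference was 1.39 (SE 0.29, adjusted p = 0.0342). When 1 array at a time was left out, it still passed only without TTR04 replicate 2.

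The 2 largest and 2 smallest fitted differences over all genes were at probe sets without a symbol. TaAffx_27775.1.S1_at had levels of 9.35 and 10.43 in TTR04 and of 2.11 and 2.20 in TTH01 (7.74, SE 0.38, adjusted p = 5.05e-07). Ta_22429.1.S1_at was higher by 7.05 (SE 0.37). TTR04 was lower at TaAffx_83549.1.S1_s_at, with 2.32 and 2.25 in TTR04 and 9.13 and 8.92 in TTH01 (-6.74, SE 0.35), and at Ta_25062.1.S1_at (-6.68, SE 0.41). The tetraploid with the low level was below the expression level on both arrays at each of these 4 genes, and the least size of their differences was between 4.43 and 5.35, below the 5.99 of xip.

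**Figure D3:**
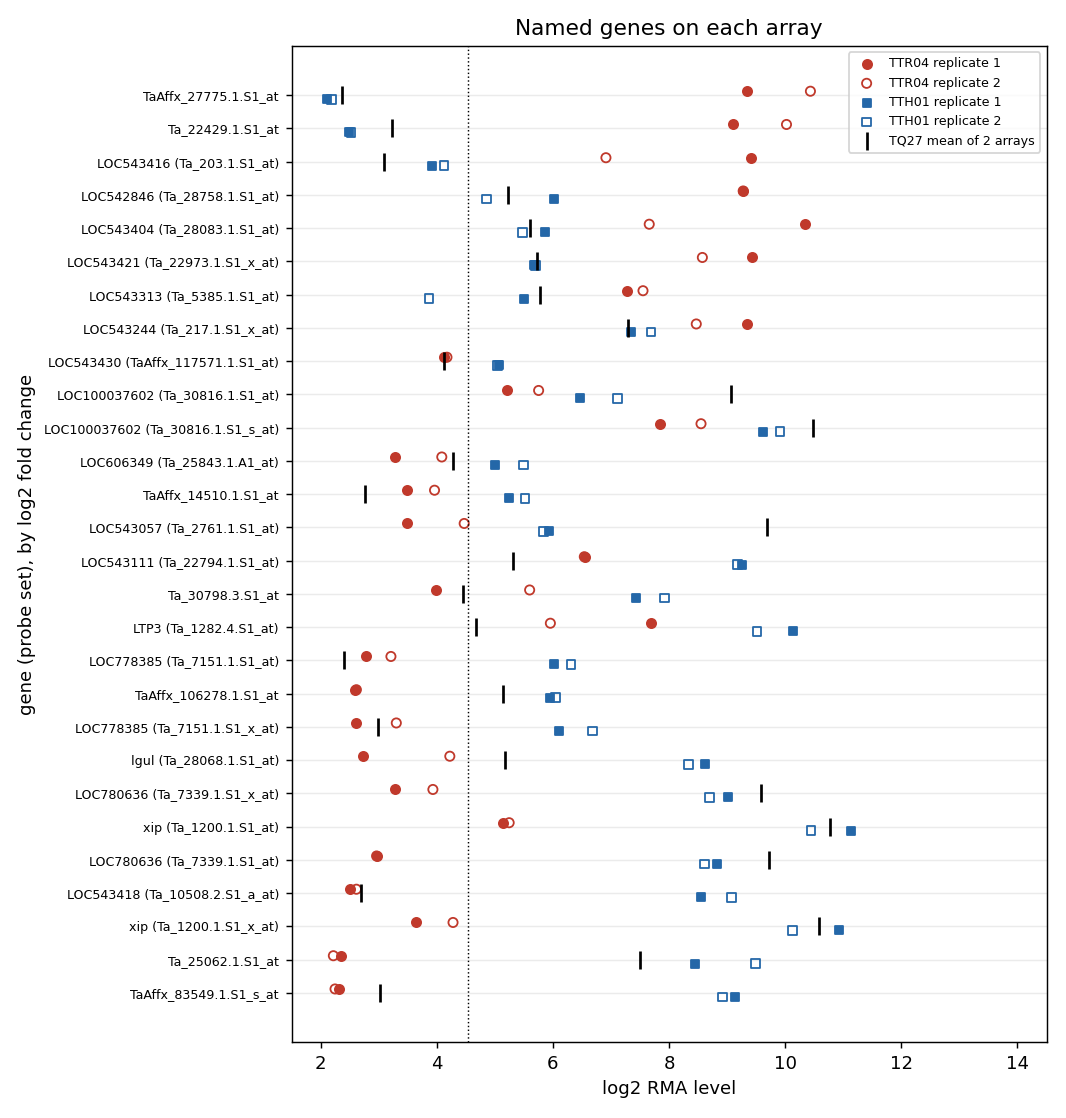
Log2 RMA level (x axis) of the 28 named genes (y axis, ordered by log2 fold change) on each TTR04 array (circles) and each TTH01 array (squares), with replicate 1 filled and replicate 2 open. Black ticks are the mean of the 2 TQ27 arrays and the dotted line is the expression level of about 4.5. The circles and squares of a gene do not overlap, and TQ27 lies near the TTH01 squares for xip and LOC780636 but near the TTR04 circles for LOC543418.

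The pathway lists changed at few members. No call was made among the expressed members of 9 lists: photosynthesis (14), cytosolic ribosome and translation (7), histones and chromatin (5), cytoskeleton and house-keeping (14), carbohydrate metabolism (6), transport and membrane (4), transcription factors and flowering (1), leaf markers (13, all also in the photosynthesis list) and seed markers (3). In limma at an unadjusted p under 0.05, these lists had 0, 0, 1, 2, 1, 1, 0, 0 and 0 members in the same order, and 14% of all expressed genes passed. Of 11 redox and glutathione genes 1 was called (lgul), of 4 inhibitor and defence genes 2 (both probe sets of xip), and of 2 lipid transfer genes 1 (LTP3), all lower in TTR04, beside 2.96% of all expressed genes called in either direction. This made 4 called members, and 7 without TTR04 replicate 2. The lists were matched on symbols and synonyms alone. The peroxidase LOC543313, called higher in TTR04 (2.73), was therefore not in the redox list. Members of the lists for chaperones (1 probe set) and for cold, dehydration and abscisic acid (10) were not expressed in either tetraploid. The median difference of the photosynthesis genes was -0.42, that of the cytoskeleton and house-keeping genes -0.46 and that of the translation genes 0.01, beside -0.06 over all expressed genes. The first 2 move with the low level of TTR04 replicate 1 described above, whose part in them was not tested.

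Among the list members that did not pass, 1-FEH, which encodes a fructan exohydrolase that breaks down the storage fructans of wheat leaves, had levels of 10.17 and 9.72 in TTR04 and of 10.96 and 11.06 in TTH01 (-1.07, SE 0.33, adjusted p = 0.231). Hmgb3 (Ta_30768.1.S1_x_at), a high mobility group chromatin protein, had 9.86 and 11.03 in TTR04 and 11.56 and 11.72 in TTH01 (-1.20, SE 0.42, adjusted p = 0.324). PR5, a thaumatin-like pathogenesis-related protein, had 5.30 and 5.51 in TTR04 and 3.88 and 4.12 in TTH01 (1.40, SE 0.66, adjusted p = 0.569). These differences did not pass the test. GSTZ1 (Ta_237.1.S1_at), a zeta-class glutathione transferase, had 9.44 and 8.51 in TTR04 and 8.30 and 7.26 in TTH01 (1.19, SE 0.46, adjusted p = 0.401). At its other probe sets the arrays overlapped, with 0.57 for Ta_237.1.S1_a_at (adjusted p = 0.879) and 0.008 for TaAffx_56524.1.S1_at (adjusted p = 0.981). The calcium channel gene TPC1 had 8.87 and 8.89 in TTR04 and 8.44 and 8.42 in TTH01 (0.45, SE 0.18, adjusted p = 0.414). The arrays of TTR04 and TTH01 did not overlap at the 5 probe sets whose levels are given here, as was so for 32.6% of all expressed genes.

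Many called genes were expressed in only 1 tetraploid. There were 533 genes with both TTR04 arrays at or above the expression level and both TTH01 arrays below it, and 616 genes with the reverse. Of these 211 and 259 passed the test, beside 762 of all 25765 expressed genes (2.96%). The condition itself keeps the arrays of the tetraploids apart and so favours calls, and nothing is concluded from these counts. Most lay not far above the expression level, with a median level of 5.14 in TTR04 for the first set and of 5.23 in TTH01 for the other, but among those called 29 in TTR04 and 26 in TTH01 reached a level of 8. The diploid TQ27 expressed 30.8% of the genes found in TTR04 alone and 29.9% of those found in TTH01 alone, and 78.9% of all genes expressed in either tetraploid. The 78.9% covers genes of any level, whereas most genes found in 1 tetraploid alone lay near the expression level. The shares were not matched for level, and no conclusion is drawn from them. With 1 array fewer in a group the condition on that group rested on 1 array, and these counts were then 879 to 1567 for TTR04 and 1062 to 1936 for TTH01.

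The mixtures show how the tetraploid difference appears after TQ27 RNA is added. Between MPV5 and MPV9 340 of the 762 genes (44.6%) were called the same way and 0 the opposite way, against 1.39% of expressed genes called in that comparison at all. The mixture arrays hold RNA of the tetraploids. The deviation of replicates from their group mean correlated at 0.85 between TTR04 and MPV5 and at 0.74 between TTH01 and MPV9 across genes, so that the mixtures are not a separate sample of the plants.

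The hexaploid lines are a further generation of plants, measured on other arrays than the tetraploids. At S4 302 of the 762 genes (39.6%) were called the same way between Allo-AT5 and Allo-AT9, at S5 312 (40.9%), and 284 at both generations. None was called the opposite way at either generation, and 722 and 723 genes had the same sign. For comparison, 1.63% of expressed genes were called between the lines at S4 and 1.49% at S5. Seen from the lines, 71.1% of their 425 calls at S4 and 78.8% of their 396 calls at S5 were also called between the tetraploids. Across genes, the replicate deviations of TTR04 correlated at -0.04 and -0.22 with those of Allo-AT5 at S4 and S5, and those of TTH01 at 0.48 and 0.43 with those of Allo-AT9. With the other line the values were 0.40 and 0.48 for TTR04 and Allo-AT9, and 0.15 and 0.04 for TTH01 and Allo-AT5. The arrays thus share deviations in part, and the part of these in the shared calls was not tested.

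The size of the difference in the lines varied with the level in TQ27. Of the 762 genes 280 (36.7%) were expressed in TQ27. Among the 219 higher genes not expressed in TQ27 the median difference was 2.72 between the tetraploids, 1.95 between the lines at S4 and 2.03 at S5. Among the 116 higher genes expressed in TQ27 it was 2.18 between the tetraploids, 0.81 at S4 and 0.71 at S5. The 263 lower genes not expressed in TQ27 had medians of -2.54, -1.86 and -1.86, and the 164 lower genes expressed in TQ27 had medians of -2.11, -0.77 and -0.87 in the same order. The median also varied with TQ27 between the mixtures MPV5 and MPV9. There it was 2.02 and 1.23 for the higher genes not expressed and expressed in TQ27, and -2.14 and -0.96 for the lower genes. The share of genes called again at S4 was 47% and 56.3% of the higher and lower genes not expressed in TQ27, against 17.2% and 18.9% of those expressed in it, and against 0.696% and 0.938% of all expressed genes called higher and lower between the lines. Since the genes were chosen by their difference between the tetraploids, these medians are given without a test.

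**Figure D4:**
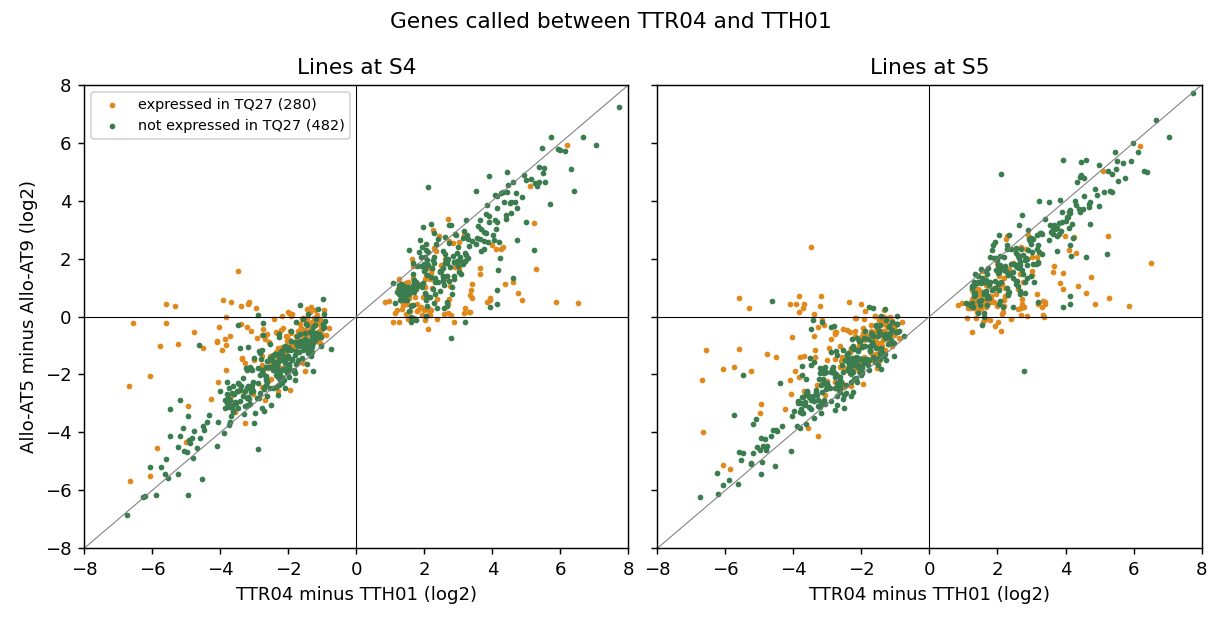
Log2 difference Allo-AT5 minus Allo-AT9 (y axis) against TTR04 minus TTH01 (x axis) for the 762 called genes, with the lines at S4 on the left and at S5 on the right. Orange points (280) are genes expressed in TQ27, green points (482) are not, and the grey diagonal marks equal differences. Many green points lie between the diagonal and a somewhat smaller difference and some near 0, and many orange points lie near 0 on the y axis.

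Several named genes had a large difference in the lines as well. LOC543418 had means of 2.17 in Allo-AT5 and 8.41 in Allo-AT9 at S4 (-6.25, adjusted p = 1.14e-06) and of 2.31 in Allo-AT5 and 7.71 in Allo-AT9 at S5 (-5.40). The values of lgul (Ta_28068.1.S1_at) were 3.60 in Allo-AT5 and 7.92 in Allo-AT9 at S4 (-4.33, adjusted p = 0.00263), with a mean of 5.17 in TQ27. TaAffx_27775.1.S1_at, which was high in TTR04, had 9.58 in Allo-AT5 and 2.33 in Allo-AT9 at S4 (7.24) and 10.00 in Allo-AT5 and 2.26 in Allo-AT9 at S5 (7.74). LOC543111 had 6.09 in Allo-AT5 and 8.97 in Allo-AT9 at S4 (-2.88, adjusted p = 0.000113).

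For other genes the difference between the lines did not pass the test. For xip (Ta_1200.1.S1_x_at) the means were 10.23 in Allo-AT5 and 10.44 in Allo-AT9 at S4 (-0.21, adjusted p = 1) and 9.70 in Allo-AT5 and 10.84 in Allo-AT9 at S5 (-1.14, adjusted p = 0.696), levels like that of TQ27. The mixtures were at 9.74 in MPV5 and 10.54 in MPV9 for this probe set. LOC543404 had 5.53 in Allo-AT5 and 5.36 in Allo-AT9 at S4 (0.16), and LOC543421 had 6.0 in Allo-AT5 and 5.85 in Allo-AT9 (0.15). Both were higher in the mixture MPV5, at 8.74 and 8.22, which holds TTR04 RNA, than in the line made from TTR04. For LOC542846 the means were 8.43 in MPV5 and 6.37 in Allo-AT5 at S4, with a difference between the lines of 0.51 at S4 and 1.17 at S5 (adjusted p = 0.66), and for LOC543416 they were 7.56 in MPV5 and 4.27 in Allo-AT5. For these 4 genes the tetraploid difference minus that of the lines was not called, and MPV5 was not tested against Allo-AT5.

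Whether a tetraploid difference differed from that between the lines was tested directly, as a contrast of 4 groups. Among the 762 genes 21 were called at S4 and 21 at S5, and 17 at both. Over all expressed genes the calls were 29 (0.113%) and 25 (0.097%). The contrast holds the tetraploid values by which the 762 genes were chosen. That choice favours calls among them and a smaller difference in the lines. The 17 genes had the smaller difference in the lines, and TQ27 expressed 16 of them. They were xip and LOC780636 with 2 probe sets each and 13 genes without a symbol. Between the mixtures MPV5 and MPV9 the xip and LOC780636 probe sets differed by -0.94 to -0.74. The mixtures were not tested against the lines. Where TTH01 was the low parent, an example is Ta_28667.1.S1_at, chosen after its values were seen, with 9.18 and 8.88 in TTR04, 2.76 and 3.56 in TTH01 and a mean of 10.01 in TQ27. Its means at S4 were 9.34 in Allo-AT5 and 8.83 in Allo-AT9, beside 9.37 in MPV5 and 8.88 in MPV9. The contrast was 5.36 (SE 0.45, adjusted p = 0.00102), with TTH01 below the expression level and a tetraploid difference of at least 4.49. The exception, Ta_12887.1.S1_at, also named after its values were seen, had 6.55 and 7.08 in TTR04, 2.78 and 3.01 in TTH01 and a mean of 3.30 in TQ27. It was at 5.50 in MPV5 but at 3.05 and 3.02 in Allo-AT5 at S4 and S5, below the expression level (contrast 3.60, SE 0.48, adjusted p = 0.0135 at S4). Its tetraploid difference was at least 2.28. These counts varied with single arrays. At S4 they were 39 without TTR04 replicate 2, 13 without TTH01 replicate 1 and 11 without TTH01 replicate 2, and at S5 they were 11 without TTR04 replicate 1, 41 without TTR04 replicate 2 and 8 without either TTH01 replicate.

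Related probe sets seldom differed in opposite directions. The number after Ta in a probe set's name is that of its transcript cluster, and 3526 clusters had at least 2 expressed probe sets. Of these 132 held a called gene and 52 held 2 or more, and in 49 of the 52 the calls ran the same way. In the other 3 they ran opposite ways, and these are named because they are few. In cluster Ta_14571, Ta_14571.1.S1_at had 3.21 and 3.72 in TTR04 and 7.88 and 8.24 in TTH01 (-4.60, SE 0.30), whereas Ta_14571.2.A1_at had 7.24 and 6.82 in TTR04 and 2.90 and 2.74 in TTH01 (4.21, SE 0.41), and the least sizes were 3.52 and 2.49. A further probe set of this cluster, Ta_14571.3.S1_x_at, had 8.90 and 7.67 in TTR04 and 8.63 and 8.58 in TTH01 (-0.33, adjusted p = 0.907). In cluster Ta_30937 the differences were -3.51 (SE 0.51) and 2.01 (SE 0.34), with least sizes of 1.59 and 0.54, and in Ta_22966 they were -1.50 (SE 0.26) at 1 probe set and between 2.05 and 2.72 at 3 others. The number of such clusters was 1 without TTR04 replicate 1. Some probe sets of a cluster differ only in the suffix of their name, such as Ta_7339.1.S1_at and Ta_7339.1.S1_x_at. These are not fully separate measures, so that the 49 clusters with calls the same way say little about homoeologues. Which homoeologue each probe set measured was not resolved, since probe sequences were not used here.

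By the reference position of their gene, the 21 called genes with a symbol were spread over the 3 subgenomes. There were 5 calls among 294 expressed genes on A chromosomes, 6 among 208 on B chromosomes and 10 among 267 on D chromosomes, of which 2 in each case were higher in TTR04, beside 2.68% called of all expressed genes with a symbol. Neither tetraploid has a D genome, so that a gene assigned to a D chromosome, such as xip on 4D, was measured here in plants without that chromosome.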

How the data were processed

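Leaf RNA of 2 arrays per group (18 arrays, 9 groups) was measured on the Affymetrix wheat array. The authors normalized the raw arrays by RMA, and the deposited table holds log2 values, which were used unchanged. Tool versions are not given in the sources used here. Raw arrays and MAS5 flags were not used. Precision is limited by the number of arrays.

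The 175 AFFX and RPTR controls were left out, and 61115 probe sets were tested. The expression level of about 4.5 stands in for the flags. In R 4.3.3 with limma 3.58.1, 1 linear model with 9 groups and no covariate was fitted to all arrays (residual df 9, prior df 2.99), with empirical Bayes moderation and Benjamini-Hochberg adjustment over 61115 probe sets. The procedure was tested on simulated data. For a gene below that level on both arrays of 1 tetraploid, the distance of the other's mean from the level is given as the least difference.

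Symbols came from the platform annotation (1273 probe sets, 771 symbols), and 1272 probe sets were placed through the gene ID in IWGSC CS RefSeq v2.1. Gene lists were matched on symbols and synonyms. Named genes were called with arrays that did not overlap and were: the 12 largest and 12 smallest differences with a symbol, all genes with a name other than a LOC number, those of the study's supplementary lists, and the 2 largest and 2 smallest over all genes. Some members of the gene lists were also given, called or not, and these were not always the members with the smallest p. The genes, lists and tests were chosen with earlier results of these data known. Alternatives were a fit of the tetraploids alone, cyclic loess, replicate and spike-in blocks, a variance trend, other filters and thresholds, and leaving out each array.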

Additional observations from a re-analysis of the deposited data

Results flagged for a closer look

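Among the 762 genes called between TTR04 and TTH01, 21 had a tetraploid difference that differed from the difference between Allo-AT5 and Allo-AT9 at S4 by a direct test in limma, and 21 at S5. Of the named genes, 6 were among them at both generations, all with TTR04 lower than TTH01 and a smaller difference in the lines. The choice of genes by their tetraploid difference favours a smaller difference in the lines. The tetraploid difference minus the line difference was -6.35 at S4 and -5.42 at S5 for xip by Ta_1200.1.S1_x_at, and -5.36 and -4.47 by Ta_1200.1.S1_at. For LOC780636 it was -4.74 at S4 and -4.02 at S5 by Ta_7339.1.S1_at, and -4.31 and -3.38 by Ta_7339.1.S1_x_at. It was -3.76 at S4 and -3.47 at S5 for TaAffx_106278.1.S1_at, and -4.29 and -4.50 for Ta_25062.1.S1_at. These are fitted values, and TTR04 was below the expression level on both arrays for all of them except Ta_1200.1.S1_at. Counted from that level the tetraploid difference was at least 5.99 in size for Ta_1200.1.S1_x_at, 4.18 and 4.32 for the LOC780636 probe sets in the order above, 1.46 for TaAffx_106278.1.S1_at and 4.43 for Ta_25062.1.S1_at. Between MPV5 and MPV9 the difference was -0.80 and -0.74 for xip and -0.94 and -0.78 for LOC780636, in the order above. It was -1.53 for TaAffx_106278.1.S1_at and -2.04 for Ta_25062.1.S1_at. The mixtures were not tested against the lines.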

How the results depend on the processing

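Each result was recomputed under the alternatives that apply to it, and no direction was reversed. The counts of called genes were 72 in total, 33 higher and 39 lower, in the fit of both tetraploids alone, which has few degrees of freedom, and 3598, 1298 and 2300 at an unadjusted p under 0.05. At that threshold 1651 genes were called the same way in the mixtures, 1040 in the lines at S4 and 973 at S5. Leaving out 1 array at a time gave 471 to 1077 genes in total, 190 to 515 higher and 281 to 562 lower, with 278 to 335 shared with the mixtures, 253 to 290 with the lines at S4 and 256 to 306 at S5. The counts of differences that differed from those of the lines were 11 to 39 at S4 and 8 to 41 at S5, and 34 at each with spike-in bands as blocks. Called list members were 3 to 7 (2 in the fit alone and 7 with the spike-in block), and clusters with opposite calls 1 to 4 (1 in the fit alone and 5 with the spike-in block). Genes expressed in 1 tetraploid only were 879 to 1567 for TTR04 and 1062 to 1936 for TTH01, where fewer arrays had to meet the condition.

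The labels do not say what a replicate number marks. Deviations of same-numbered arrays correlated at over 0.1 in 18 of 36 pairs of groups (0.34 for TTR04 and TTH01) but not in the rest, so the numbers were not taken to pair the samples in the main result, although part of the arrays deviated together. With the replicate block 880 genes were called, 372 higher and 508 lower, and 755 of the 762 were among them. The spike-in block called 1076 genes. Of the 28 named genes 10 kept their call under all alternatives run on them, and 10 kept it in the fit of both tetraploids alone. Replicates of 2 per group, and the spread between the TTR04 arrays, limit what smaller differences can be seen.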
